A study of Rattus norvegicus with 8 samples.

Results

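Arhgap4, Hk3, Stxbp2, F8, Oplah and Ptpro, 6 genes read in the rat spinal cord, are described probe set by probe set in rats with EAE (experimental autoimmune encephalomyelitis), in which T cells against myelin start an inflammation of the cord. They were picked because their probe sets had not moved together between EAE and control on these same 8 arrays, so the contrast between EAE and control that follows is a description of the 6 genes and no test of them. All probe sets whose only gene symbol in the platform annotation was one of these 6 were taken, which gave 175 of the 80939 probe sets in the table and 6 of 7830 symbols. A probe set is a small group of probes that reads 1 exon or a part of one.

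EAE had been induced in 4 female Lewis rats (217, 218, 219 and 241) by an injection under the skin at the tail base, which held 50 µg of myelin basic protein (MBP) from guinea pig brain, Freund's incomplete adjuvant and M. butyricum at 4.0 mg/ml. The reference was formed by 4 healthy female Lewis littermates (193, 194, 195 and 196) that were not treated, so the effects of adjuvant and myelin protein cannot be told apart. All 8 rats were virgin and 16 weeks old, and whole spinal cords were taken at the peak of disease, with day 13 given for both groups. Each rat gave 1 array, and precision is limited by that number of arrays.

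An exon array can show more than the total amount of a transcript. A gene can give several transcripts, through another start site, another end or another choice of exons, and probe sets in exons that all transcripts share then differ from probe sets in exons that only some contain. A probe set near the background of the array shows little of either. The position of each probe set within its gene was not analysed here, and the order by probe set number used below is the numbering of the array and not the order of the exons.

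Array means were nearly equal, the SD of the log2 values ran from 2.11 to 2.26, and correlations between arrays ran from 0.890 to 0.984. Control 195 had the narrowest spread, and its olfactory receptor probe sets had a median of 3.77, where the other 7 arrays had 3.16 to 3.49. The cord was checked by markers. The mean of 4 measured neuronal markers lay at log2 10.57 to 10.81 in EAE and 11.12 to 11.35 in control cords, and that of 4 oligodendrocyte markers at 9.04 to 9.33 in EAE and 9.24 to 9.72 in control cords. All 4 measured monocyte and macrophage markers rose (mean 8.53 to 9.10 in EAE, 5.01 to 5.37 in control), as did all 4 measured T cell markers (6.70 to 6.88 in EAE, 4.12 to 4.54 in control). Of the other lists the B cell gene Cd79b (0.36 ± 0.10), the platelet gene Pf4 (1.42 ± 0.32) and the astrocyte genes Gfap (0.69 ± 0.14) and Slc1a3 (1.15 ± 0.19) rose in limma. The astrocyte list was mixed, as Slc1a2 (-0.51 ± 0.18) and Aqp4 (-0.18 ± 0.24) were lower and did not pass. The mean of 2 measured neutrophil markers was 4.73 to 5.08 in EAE and 4.19 to 4.95 in control cords. In whole cord, fewer cells of a type and less RNA per cell cannot be told apart, and the part of these cell types in the values below was not tested.

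Of the 175 probe sets 129 were measured, meaning that at least 4 of the 8 arrays reached the 25th percentile of all values (log2 3.98), and 46 were not. Of the 129, 81 passed on all 8 arrays and 9 passed only through the 4 EAE arrays. These 9 had to differ between the groups by the way they were kept. Background was taken from 2014 probe sets of 1048 olfactory receptor genes, which act mainly in the nose. The level that 95% of them stayed under was 5.13 in EAE and 5.21 in control cords. Of the 129 measured probe sets 53 (41.1%) lay at or below this limit in both groups, where 26% of all measured probe sets with 1 symbol did, and 40 (31%) lay above it in both groups, where 63.1% of all did. The 6 genes were thus read in large part near the background of the array.

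Of the 129 measured probe sets 51 were higher in EAE with an adjusted p under 0.05 in limma, where 10.2% of all measured probe sets were, and 4 were lower, where again 10.2% were. The EAE values lay wholly above the controls in 52 (11.5% of all probe sets) and wholly below in 5 (13.9% of all). Because the genes were chosen on this contrast, nothing is read from these shares. The number of lower calls was 0 without EAE 217 and 0 without EAE 241 (8 and 6 at an unadjusted p under 0.05), 1 without control 194 or EAE 218, 2 without control 193 or control 196, 3 without control 195 and 4 without EAE 219. At an unadjusted p under 0.05 it was 6 with all rats and 6 to 9 with each rat left out. All 4 of these probe sets were lower in EAE under every alternative run.

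To find the probe sets that moved apart, the value of each was set against the mean of the other measured probe sets of its gene on the same array. A probe set was called set apart when this difference was at least 1 on the log2 scale (2-fold) higher or lower in EAE than in control, with no overlap between the 4 EAE and the 4 control arrays. The rule looks at the distance from the gene, so a probe set can be set apart while its own values overlap between the groups. By this rule 17 probe sets were set apart upward (1.6% of all probe sets in genes with at least 3 measured) and 13 downward (1.68% of all). Each of the 6 genes had some in both directions, which held for 5.97% of all such genes. Just inside the limit lay Ptpro 5825929 and Oplah 5641087, both at -1.002, and just outside it Oplah 6650915 at -0.98 and Hk3 6680143 at -0.97. Of the 17 upward probe sets 4 had passed the filter only through the EAE arrays (Arhgap4 5735790, Hk3 6200484 and 6528941, Stxbp2 6109675). That their own EAE and control values did not overlap was fixed by how they were kept. Of all 17, 7 lay above background in both groups and 10 in EAE only. Of the 13 downward probe sets 5 lay above background in both groups, 2 in control only and 6 in neither.

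**Figure D1:**
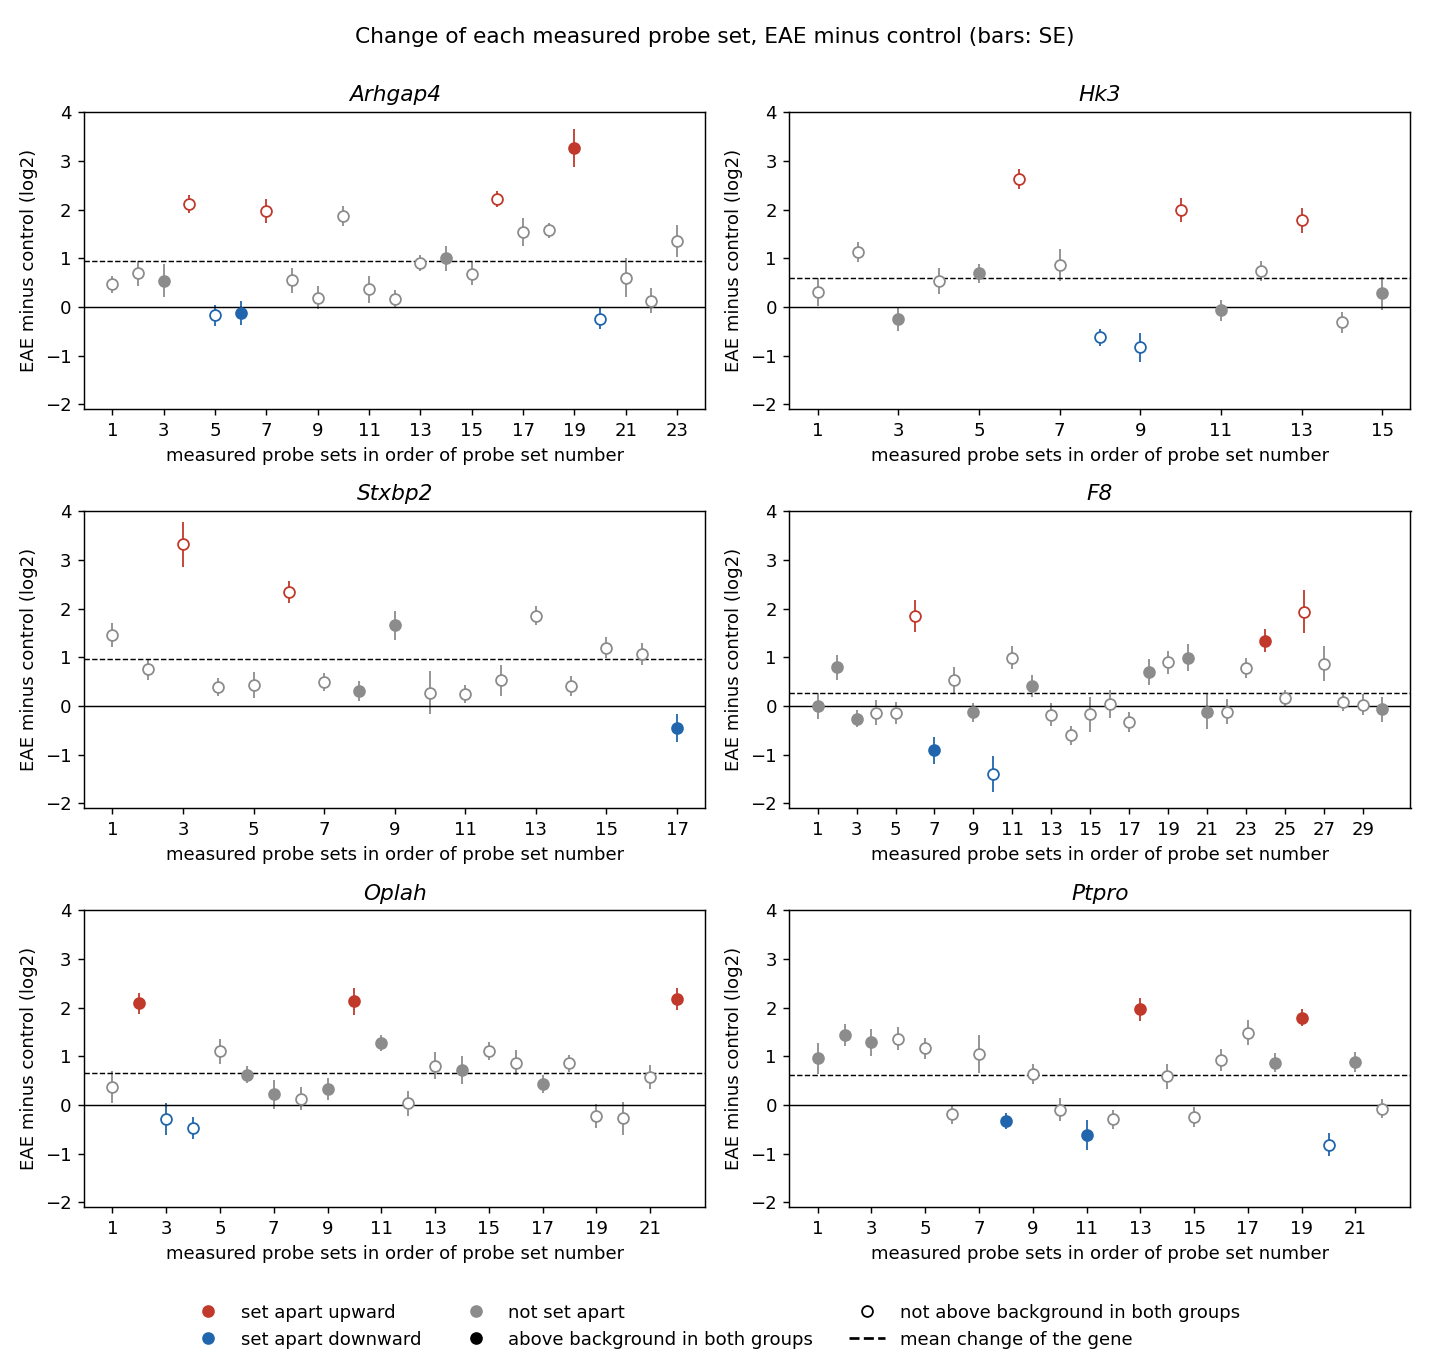
Each point is 1 measured probe set, placed by its order in probe set number (horizontal axis) and its difference EAE minus control in log2 units (vertical axis, bars SE, n = 4 arrays per group). Filled points lie above background in both groups, colours mark the probe sets set apart from their gene, and the dashed line is the mean change of the gene. The upward points reach 3.26 in Arhgap4 and 3.32 in Stxbp2, and the lowest point is that of F8 at -1.40.

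The upstream sequences of Hk3 and Stxbp2 are shown because, of the 4 genes with a promoter sequence, these were the ones whose window held 1 of the motifs sought. They were picked for that match and not for their values. RefSeq's promoter table (GRCr8) matched 4 of the 6 genes, Arhgap4, Hk3, Stxbp2 and Ptpro. In the 250 bases before the annotated start, 3 motifs were sought on both strands: AGGAAGT, a core read by Ets factors and PU.1, the core of the interferon-stimulated response element, and TTCNNNGAA, a STAT site. Of all promoter windows of the same length 7.08% held the first, 3.41% the second and 7.67% the third. Hk3 (chr17:9604781-9605030, plus strand) and Stxbp2 (chr12:6487076-6487325, plus strand) each held AGGAAGT once, on the opposite strand, and neither of the others. No match to any of the 3 was found in the windows of Arhgap4 and Ptpro. Capitals mark the match, which is a description of the letters and not a binding site.
Hk3: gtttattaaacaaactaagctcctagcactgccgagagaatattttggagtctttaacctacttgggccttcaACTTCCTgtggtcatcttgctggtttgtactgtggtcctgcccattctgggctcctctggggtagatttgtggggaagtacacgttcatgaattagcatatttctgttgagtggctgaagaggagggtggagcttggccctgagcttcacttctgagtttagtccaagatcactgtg
Stxbp2: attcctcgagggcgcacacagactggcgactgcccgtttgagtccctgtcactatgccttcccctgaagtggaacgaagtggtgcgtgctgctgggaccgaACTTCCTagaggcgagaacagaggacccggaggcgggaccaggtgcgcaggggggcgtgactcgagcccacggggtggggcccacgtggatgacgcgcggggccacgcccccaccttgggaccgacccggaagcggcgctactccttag

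Arhgap4 codes for a GTPase-activating protein that acts on the actin skeleton. It is known from blood cells and, in rodents, from growing axons. Of its 25 probe sets 23 were measured, and their changes ran from -0.24 to 3.26 with a median of 0.69. The mean of its measured probe sets was 5.59, 5.58, 5.54 and 5.50 in EAE rats 217, 218, 219 and 241, and 4.52, 4.62, 4.73 and 4.57 in control rats 193, 194, 195 and 196, the order used for all values below. This mean passed in limma at the gene level, where 13.7% of all genes rose (change 0.94 ± 0.09, SE).

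The Arhgap4 probe set that moved most was 6646724. It read 8.85, 8.40, 8.66 and 8.71 in EAE cords, against 6.47, 5.49, 4.19 and 5.42 in control cords, a 9.60-fold higher level (change 3.26 ± 0.39). Every EAE value was above every control value, and the control values spread widely, with control 193 high and control 195 low. Probe set 6478833 read 7.03, 7.08, 7.06 and 6.97 in EAE cords, against 5.02, 4.53, 4.94 and 4.80 in control cords (2.21 ± 0.17), with an SD of 0.05 among the EAE rats. Probe set 5735790 read 5.64, 5.98, 5.42 and 5.92 in EAE cords, against 3.59, 3.76, 3.42 and 3.75 in control cords (2.11 ± 0.19). Probe set 6116751 read 5.88, 6.67, 5.89 and 5.63 in EAE cords, against 3.73, 3.94, 4.45 and 4.07 in control cords (1.97 ± 0.25). These last 3 lay at background in control cords, so their differences are measured against it.

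Against these stood 3 probe sets of Arhgap4 that hardly differed. The brightest of them, 6036983, read 6.82, 7.39, 7.95 and 7.74 in EAE cords, against 7.56, 7.29, 7.77 and 7.77 in control cords (-0.12 ± 0.25). It was above background in all 8 rats, the groups overlapped, and only EAE 217 was low. Without that rat the change was 0.09. Probe set 6698072 read 4.67, 4.87, 5.04 and 4.70 in EAE cords, against 5.05, 5.003, 5.55 and 4.63 in control cords (-0.24 ± 0.22). Probe set 5908992 read 5.004, 4.21, 4.38 and 4.40 in EAE cords, against 4.63, 4.76, 4.40 and 4.89 in control cords (-0.17 ± 0.21). Both were at background in both groups, and in both the groups overlapped. Nearest to the median of the gene was 6413685, with 5.06, 5.58, 4.86 and 4.84 in EAE cords, against 4.09, 4.38, 4.91 and 4.21 in control cords (0.69 ± 0.24). It overlapped through control 195 alone.

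Hk3 codes for a hexokinase, which phosphorylates glucose in the first step of glycolysis, and is known mainly from white blood cells. Of its 21 probe sets 15 were measured, and their changes ran from -0.83 to 2.63 with a median of 0.54. The gene mean was 5.29, 4.96, 5.08 and 5.09 in EAE cords, against 4.22, 4.61, 4.75 and 4.49 in control cords. It passed in limma (0.59 ± 0.13), but with the median of the probe sets in place of the mean the change was 0.46 and did not pass.

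In Hk3 3 probe sets were set apart upward, all from background in control cords. Probe set 6200484 read 5.97, 5.34, 5.29 and 5.56 in EAE cords, against 2.75, 3.20, 2.84 and 2.84 in control cords (2.63 ± 0.20). Probe set 6528941 read 5.89, 4.79, 4.91 and 5.14 in EAE cords, against 3.13, 3.37, 2.99 and 3.30 in control cords (1.98 ± 0.25). Probe set 6675745 read 6.95, 5.87, 6.38 and 6.21 in EAE cords, against 4.29, 5.02, 4.27 and 4.73 in control cords (1.78 ± 0.27). EAE 217 had the highest value in each of the 3, and no control reached an EAE value, which for 6200484 and 6528941 follows from the filter.

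Set apart downward in Hk3 were 6500828 and 6242226, both at background in both groups. The first read 3.98, 3.96, 4.76 and 3.91 in EAE cords, against 4.62, 4.48, 5.61 and 5.23 in control cords (-0.83 ± 0.29), and EAE 219 overlapped with the controls. The second read 4.14, 4.32, 3.99 and 3.99 in EAE cords, against 4.79, 4.94, 4.63 and 4.57 in control cords (-0.62 ± 0.17), with no overlap. The 4 Hk3 probe sets above background in both groups differed by -0.25 to 0.69, and among themselves none was set apart. The probe set nearest the median, 6022497, read 5.81, 4.91, 5.39 and 5.24 in EAE cords, against 4.20, 5.22, 5.08 and 4.70 in control cords (0.54 ± 0.27), with overlap. In the RefSeq gene table (GRCr8) Unc5a, a netrin receptor gene, overlaps Hk3. Unc5a fell by 0.35 on the log2 scale (5.62 in EAE, 5.98 in control cords), and its part in the lower Hk3 probe sets was not tested.

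Stxbp2, also named Munc18b, codes for a protein that binds syntaxins and is needed for the release of granules by cytotoxic lymphocytes and other blood cells. Its loss in humans causes a familial form of haemophagocytic disease. Of its 20 probe sets 17 were measured, and their changes ran from -0.46 to 3.32 with a median of 0.53. The gene mean was 5.80, 5.86, 5.53 and 5.82 in EAE cords, against 4.69, 4.90, 4.83 and 4.75 in control cords, and it passed in limma (0.96 ± 0.11).

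The widest change of a measured probe set in the 6 genes was that of Stxbp2 5957814. It read 7.94, 9.03, 8.20 and 8.14 in EAE cords, against 6.42, 5.24, 4.42 and 3.96 in control cords (3.32 ± 0.47). The control values spanned a wide range (SD 1.08) with their mean at background, so the size of this difference is loosely fixed. Probe set 6109675 read 5.27, 5.49, 4.65 and 5.52 in EAE cords, against 3.10, 2.99, 2.69 and 2.78 in control cords (2.34 ± 0.22).

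Set apart downward in Stxbp2 was 6734308 alone. It read 5.75, 5.70, 5.06 and 5.60 in EAE cords, against 5.32, 6.16, 6.69 and 5.78 in control cords (-0.46 ± 0.29), above background in both groups and with overlap. Without control 195 its change was -0.23, and without EAE 219 it was -0.30. It is 1 of 3 Stxbp2 probe sets above background in both groups, and the other two had changes above 0. Probe set 6177157 read 8.23, 8.52, 7.91 and 8.17 in EAE cords, against 5.62, 6.68, 7.01 and 6.87 in control cords, a 3.16-fold higher level (1.66 ± 0.30). Probe set 6160134 read 5.68, 6.61, 6.09 and 6.14 in EAE cords, against 5.72, 5.85, 5.94 and 5.77 in control cords (0.31 ± 0.21), with overlap. Probe set 6386533, nearest the median, read 4.71, 4.55, 5.51 and 4.99 in EAE cords, against 4.98, 4.92, 3.78 and 3.97 in control cords (0.53 ± 0.32).

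**Figure D2:**
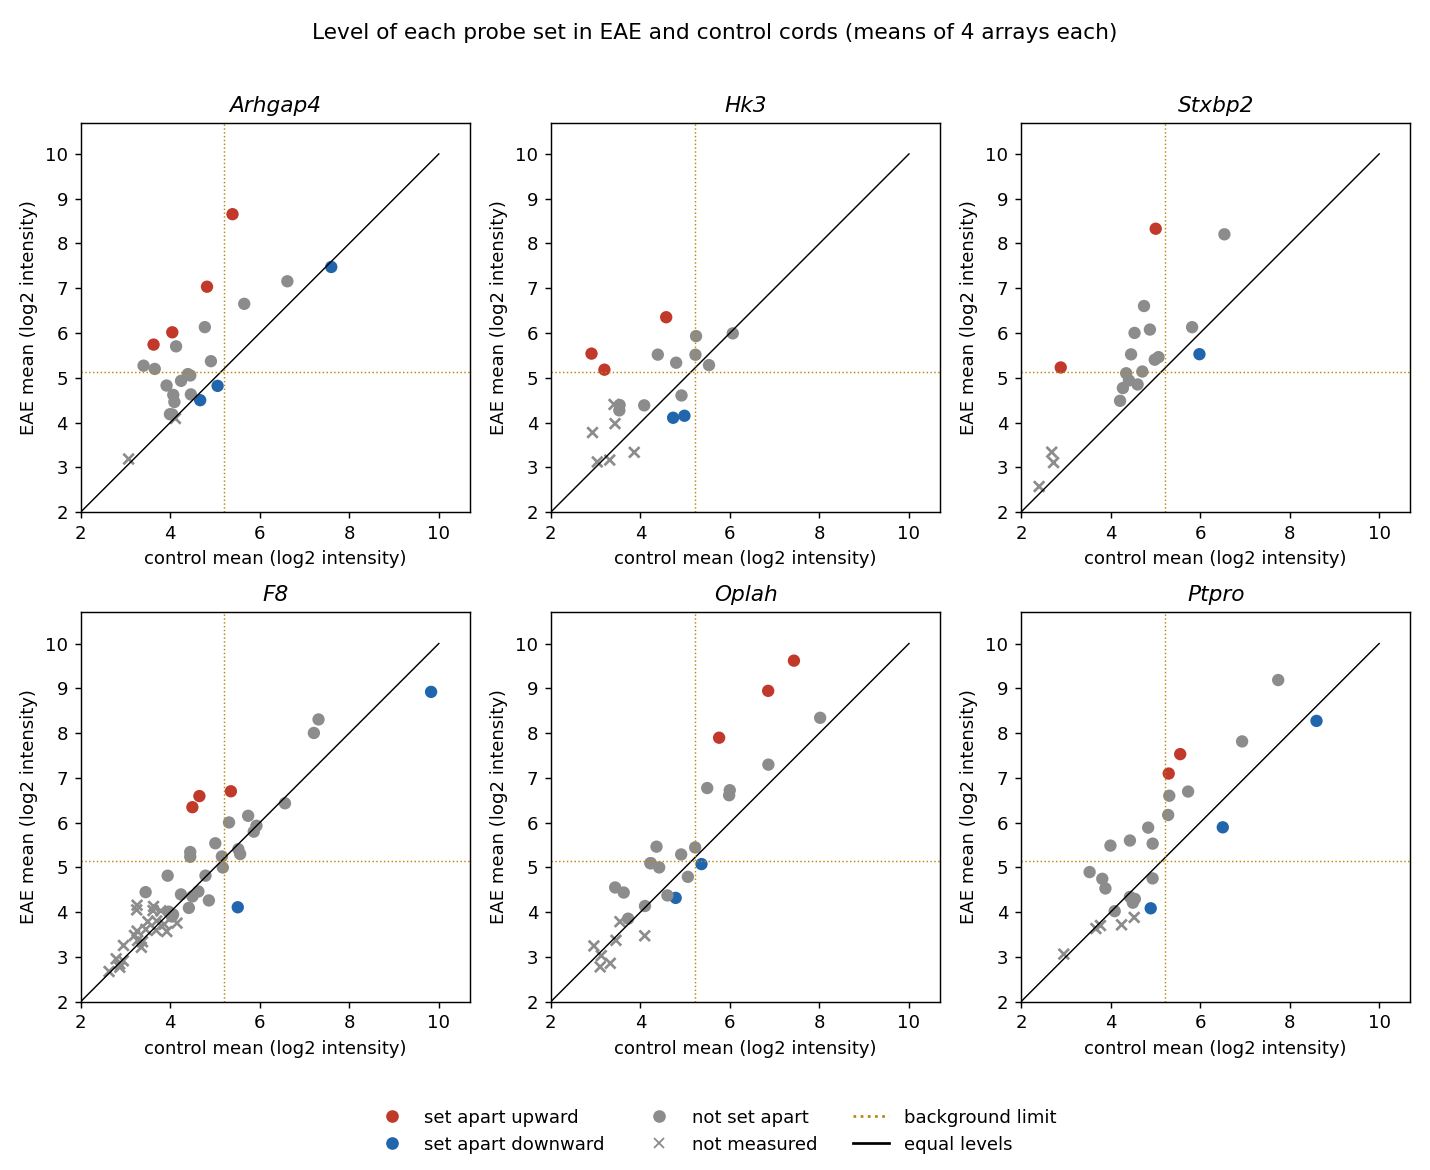
Each symbol is 1 probe set, with its control mean on the horizontal and its EAE mean on the vertical axis (log2 intensity, 4 arrays each). Crosses are probe sets that were not measured, dotted lines are the background limits (5.21 in control, 5.13 in EAE), and points on the diagonal have equal levels. Oplah and Ptpro hold bright probe sets both far above and near the diagonal, whereas the upward probe sets of Hk3 start from background.

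F8 codes for coagulation factor VIII, the cofactor of factor IXa that is missing in haemophilia A. It is made mainly by endothelial cells, and Cldn5, the 1 measured endothelial marker, was at 5.64 to 5.94 in EAE and 5.33 to 5.86 in control cords. Of the 53 F8 probe sets 30 were measured. Their changes ran from -1.40 to 1.94 around a median of 0.03, so they lay on both sides of 0. The gene mean was 5.59, 5.41, 5.45 and 5.40 in EAE cords, against 5.14, 5.24, 5.23 and 5.20 in control cords. Although the groups did not overlap, the change of 0.26 ± 0.09 did not pass in limma. It was 0.50 and passed when the filter stood at the 50th percentile, and it also passed after quantile normalization, without variance moderation and with array quality weights.

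Upward in F8 stood 3 probe sets. Probe set 6450091 read 6.90, 6.53, 5.77 and 7.17 in EAE cords, against 5.22, 4.92, 3.28 and 5.19 in control cords (1.94 ± 0.44), where control 195 was far below the other controls. Without control 195 the change was 1.48. Probe set 5729005 read 6.48, 6.99, 6.27 and 5.64 in EAE cords, against 5.12, 4.23, 4.66 and 3.98 in control cords (1.85 ± 0.32). Probe set 6366714 was above background in both groups and read 7.07, 6.57, 6.24 and 6.92 in EAE cords, against 5.79, 5.05, 5.30 and 5.28 in control cords, a 2.54-fold higher level (1.34 ± 0.24). In all 3 every EAE rat was above every control.

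Downward in F8 stood 2 probe sets. The brighter, 5814124, read 8.80, 8.37, 9.39 and 9.12 in EAE cords, against 9.41, 9.79, 10.44 and 9.67 in control cords, a 1.88-fold higher level in control cords (-0.91 ± 0.28). The groups were parted only narrowly, by EAE 219 and control 193. Without both control 195 and EAE 218 its change was -0.52 and did not pass in limma, and after quantile normalization it was -0.87 and did not pass either. Probe set 5917742 read 4.16, 3.29, 4.78 and 4.20 in EAE cords, against 5.92, 4.96, 4.93 and 6.24 in control cords (-1.40 ± 0.37), at background in EAE. Nearest the median was 6133518, with 4.21, 3.78, 4.02 and 4.03 in EAE cords, against 3.52, 3.87, 4.85 and 3.63 in control cords (0.04 ± 0.28), at background in both. The 11 F8 probe sets above background in both groups ran from -0.91 to 1.34 with a median of 0.00, while 35 of all 53 lay at or below background in both groups.

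Oplah codes for oxoprolinase, an enzyme of the glutathione cycle that returns oxoproline to glutamate. Of its 29 probe sets 22 were measured, and their changes ran from -0.47 to 2.19 with a median of 0.60. The gene mean was 5.90, 5.82, 5.84 and 5.91 in EAE cords, against 5.06, 5.23, 5.43 and 5.10 in control cords, and it passed in limma (0.67 ± 0.11). With the median of the probe sets in place of the mean the change was 0.22 and did not pass.

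The 3 Oplah probe sets set apart upward lay above background in both groups and moved by almost the same amount. In control cords 6132683, with a mean of 5.76, lay nearest to the background limit of 5.21. Probe set 6684078 read 9.61, 9.84, 9.27 and 9.75 in EAE cords, against 7.76, 7.72, 6.98 and 7.26 in control cords, 4.55-fold higher (2.19 ± 0.23). Probe set 6132683 read 7.61, 8.51, 7.54 and 7.92 in EAE cords, against 5.65, 5.43, 6.39 and 5.57 in control cords, 4.40-fold higher (2.14 ± 0.28). Probe set 5636944 read 9.19, 8.70, 8.63 and 9.26 in EAE cords, against 7.18, 6.80, 6.52 and 6.92 in control cords, 4.25-fold higher (2.09 ± 0.22). In none of them did the groups come near each other. The other 6 Oplah probe sets above background in both groups, among them 6013296, differed by 0.22 to 1.28. Probe set 6013296 read 8.43, 8.09, 8.39 and 8.45 in EAE cords, against 7.41, 8.00, 8.31 and 8.35 in control cords (0.33 ± 0.23), with overlap. The upper end was 6186997, with 6.83, 6.85, 6.62 and 6.78 in EAE cords, against 5.31, 5.42, 5.72 and 5.53 in control cords (1.28 ± 0.17).

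The 2 Oplah probe sets set apart downward were dim. Probe set 5678497 read 4.66, 3.68, 4.51 and 4.42 in EAE cords, against 4.93, 4.85, 4.48 and 4.89 in control cords (-0.47 ± 0.24). Probe set 5641087 read 5.15, 5.01, 5.25 and 4.89 in EAE cords, against 4.81, 4.93, 6.45 and 5.27 in control cords (-0.29 ± 0.33), where control 195 alone was high. Without that rat the change was 0.07. Both overlapped between the groups, and with the median of the other probe sets as the yardstick no Oplah probe set was set apart downward. Probe set 6664222, nearest the median, read 5.63, 4.68, 4.85 and 4.84 in EAE cords, against 4.62, 4.57, 4.05 and 4.45 in control cords (0.58 ± 0.24). In the RefSeq gene table Smpd5 and Exosc4 overlap Oplah, and neither had a measured probe set under its own symbol. Genes for long noncoding RNAs overlap F8 (LOC134482991) and Ptpro (LOC120102421) in the same table, also without a measured probe set under their own symbols. The part of these overlapping genes in the values was not tested.

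Ptpro codes for a receptor-type tyrosine phosphatase, also named GLEPP1, found on kidney podocytes and neurons. Short forms that start inside the gene and lack most of the extracellular part are known from rabbit osteoclasts and from human B cells. Of its 27 probe sets 22 were measured, and their changes ran from -0.81 to 1.97 with a median of 0.88. The gene mean was 5.88, 5.81, 5.77 and 5.75 in EAE cords, against 5.25, 5.17, 5.25 and 5.03 in control cords, and it passed in limma (0.63 ± 0.10). Which form each probe set reads was not analysed here.

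The changes of the measured Ptpro probe sets lay in 2 ranges with a gap between them, a split noticed after the values were seen. Of the 22 measured probe sets 14 differed by 0.59 to 1.97 and 8 by -0.81 to -0.07. Above background in both groups lay 7 of these 14 and only 2 of these 8. The 5 Ptpro probe sets that were not measured changed by -0.65 to 0.11, which reaches into the gap. The gap thus holds only after the filter, and the part of background in it was not tested. Set apart upward were 2, both above background in both groups. Probe set 6102981 read 7.43, 7.66, 7.27 and 7.76 in EAE cords, against 6.07, 5.78, 5.22 and 5.17 in control cords, 3.93-fold higher (1.97 ± 0.24). Probe set 6369786 read 7.04, 6.92, 7.001 and 7.42 in EAE cords, against 5.37, 5.50, 5.16 and 5.17 in control cords, 3.47-fold higher (1.80 ± 0.18). The brightest Ptpro probe set in EAE, 5685583, moved the same way without being set apart, with 9.43, 9.23, 8.98 and 9.10 in EAE cords, against 8.25, 7.67, 7.33 and 7.73 in control cords (1.44 ± 0.22).

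Set apart downward in Ptpro were 3, of which 2 were above background in both groups. Probe set 5825929 read 8.01, 8.43, 8.37 and 8.28 in EAE cords, against 8.50, 8.60, 8.81 and 8.49 in control cords (-0.33 ± 0.17). Its EAE values lay just under all control values. Probe set 6055000 read 6.32, 5.06, 6.06 and 6.14 in EAE cords, against 5.999, 6.31, 6.82 and 6.90 in control cords (-0.61 ± 0.31), with overlap and with EAE 218 lowest. Its change was -0.33 without EAE 218, and -0.23 without both EAE 218 and control 195. Probe set 6434295, at background in both groups, read 3.78, 4.00, 4.53 and 4.03 in EAE cords, against 4.88, 5.38, 4.80 and 4.53 in control cords (-0.81 ± 0.23). Nearest the median was 6287535, with 7.96, 7.52, 7.66 and 8.12 in EAE cords, against 6.62, 6.84, 7.19 and 7.11 in control cords (0.87 ± 0.20). The 9 Ptpro probe sets above background in both groups thus included 7 that were higher by 0.87 or more and 2 that were lower.

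**Figure D3:**
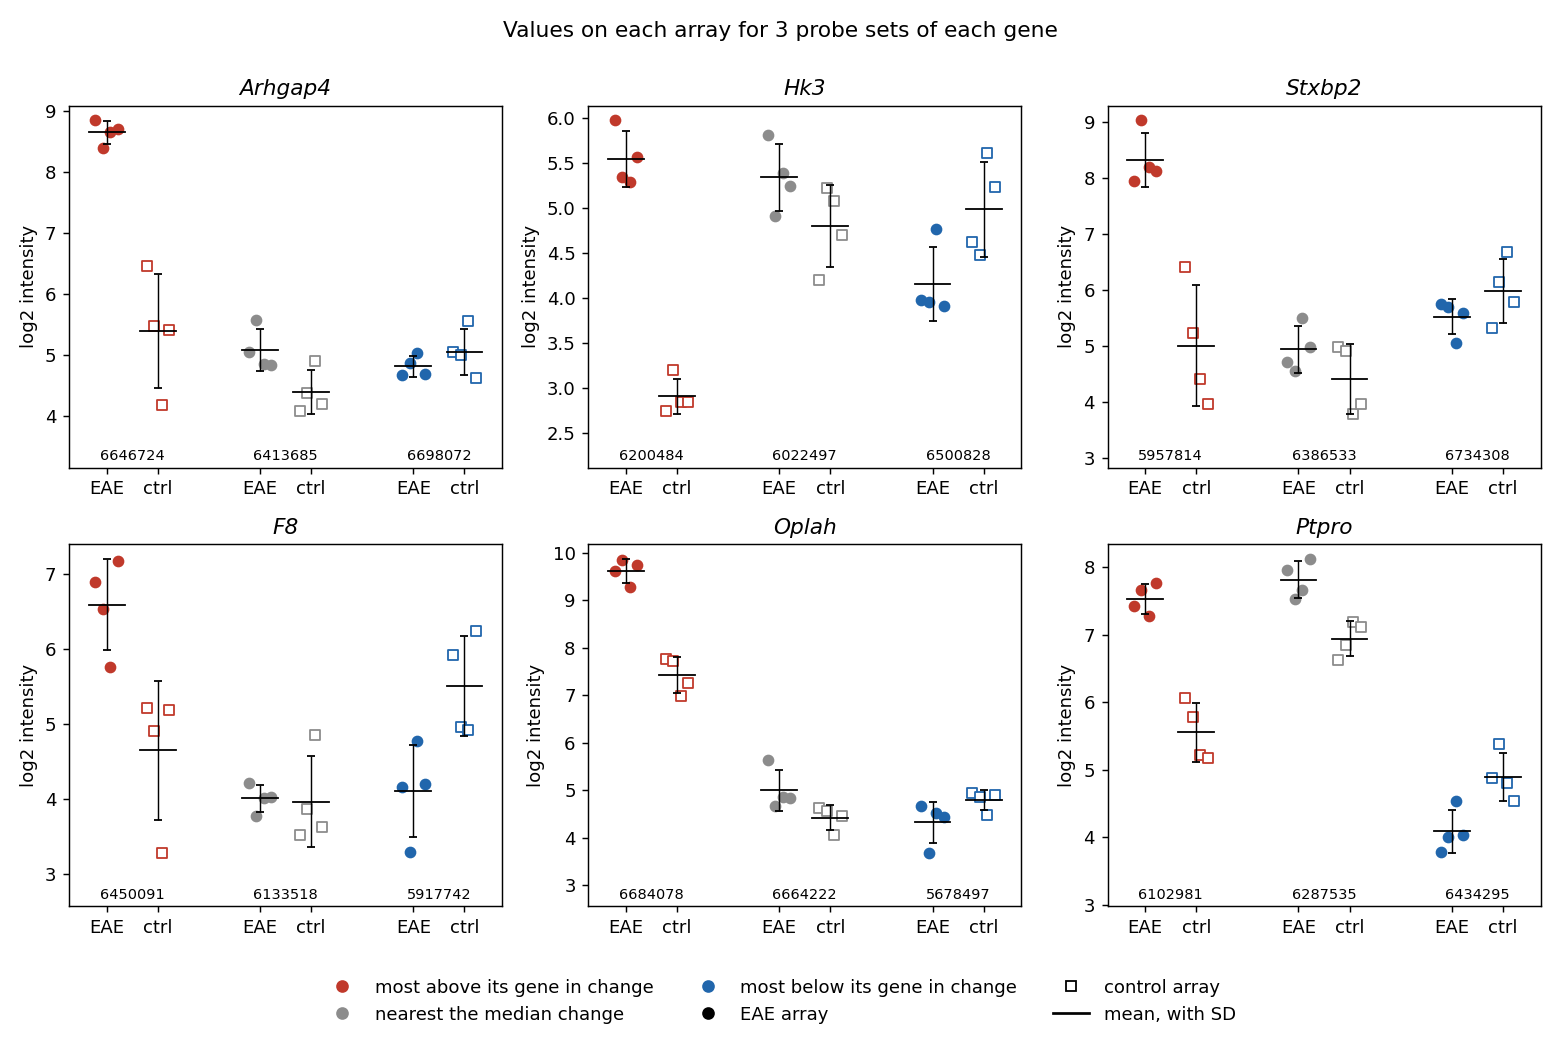
For each gene, 3 probe sets are shown with their values on each array (log2 intensity, EAE left of control, lines mean with SD, n = 4 each): the one most above its gene in change (red), the one nearest the median change (grey) and the one most below (blue). In red the groups never meet (for Oplah 6684078, 9.27 to 9.84 in EAE and 6.98 to 7.76 in control), which for Hk3 6200484 was fixed by the filter, while in blue they part only in F8 5917742 (3.29 to 4.78 in EAE and 4.93 to 6.24 in control).

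When only the 40 probe sets above background in both groups were compared with each other within their gene, 7 were set apart upward (0.831% of all such probe sets) and 5 downward (0.939% of all). Both directions were present in Arhgap4, Stxbp2, F8 and Ptpro, the upward one alone in Oplah with 3, and neither in Hk3. The 2 directions are not independent, because a probe set that rises strongly raises the mean the others are set against. This weighs most in Arhgap4 with 4 such probe sets and Stxbp2 with 3. There the downward probe sets 6036983 and 6734308 themselves changed by only -0.12 and -0.46. Of the 7 upward probe sets 6 were also among the 17 above. Stxbp2 6177157 came in, and Ptpro 6369786 fell short at 0.986. The 5 downward probe sets were all among the 13. On this yardstick the differences from the gene were 2.79 for Arhgap4 6646724 and -1.72 for 6036983, 1.74 for Stxbp2 6177157 and -1.44 for 6734308, 1.204 for F8 6366714 and -1.27 for 5814124, and 1.19 for Ptpro 6102981 and -1.72 for 6055000. Across the 2286 genes with at least 10 measured probe sets, the distance from the lowest to the highest change within a gene had a median of 1.32. In the 6 genes it was 3.78 in Stxbp2, 3.50 in Arhgap4, 3.46 in Hk3, 3.34 in F8, 2.78 in Ptpro and 2.66 in Oplah. Nothing is read from this comparison, since the 6 genes were picked for such differences. The distance also grows with the number of probe sets, for which the genes were not matched. All 6 members passed limma's diffSplice test of exon usage, by which they had been chosen and which 26.6% of the 5563 tested genes passed.

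The 46 probe sets that were not measured lay low in both groups. Their means ran no higher than 4.41 in EAE (Hk3 6672289) and 4.53 in control cords (Ptpro 6308712), both under the background limits. F8 had 23 of them, with changes from -0.40 to 0.90.

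The profile of the set-apart probe sets over the 8 arrays was then compared with that of 5562 other genes with at least 3 measured probe sets, each profile taken relative to its control mean. Likeness was the root mean square difference in log2 units, and the direction with more probe sets was used. For the 4 upward probe sets of Arhgap4 (mean change 2.39) the nearest genes were Soat1 (0.13), Inpp5d (0.14) and Ucp2 (0.17). For the 3 of Oplah (2.14) they were Vav1 (0.12), Fxyd5 (0.12) and C3ar1 (0.16), and for the 3 of Hk3 (2.13) Trpm2 (0.17), Cd37 (0.20) and Stat2 (0.24). For the 2 of Stxbp2 (2.83) they were Lgals3 (0.29), C1s (0.29) and Lcp1 (0.34), and for the 3 of F8 (1.71) Btg1 (0.17), Ass1 (0.18) and Elf1 (0.19). For the 3 downward probe sets of Ptpro (-0.58) they were Sh3glb2 (0.09), Plekhf1 (0.10) and Dynlt3 (0.10). Since the probe sets were picked by their change, these genes are named as a description only.

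Genes of the same families and pathways were read at the gene level, where 13.7% of all genes rose and 17.4% fell and the median change was -0.11. Of the hexokinase list only Hk2 was measured, and it rose by 2.01 ± 0.09.

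Of 12 genes listed for the Sec1/Munc18 family and granule release, not all of which serve granule release, 4 rose and 1 fell, with a median change of 0.05. The vesicle protein Vamp8 (1.65 ± 0.28) and the granule GTPase Rab27a (1.29 ± 0.19) rose, as did Stx7 (0.92 ± 0.10) and Stx3 (0.62 ± 0.12), while Vamp2 of synaptic vesicles fell by 0.52. Stxbp3, the one other measured Stxbp gene, differed by -0.23 ± 0.11 and did not pass. Unc13d of the same list did not pass either (0.06 ± 0.11), with gene means of 4.71 in EAE and 4.65 in control cords. Of 10 coagulation genes around factor VIII 1 rose, F10 (2.44 ± 0.16), and the lowest, F7 (-0.40 ± 0.16), did not pass (median 0.06). Lman1 (0.20 ± 0.09) and Mcfd2 (0.09 ± 0.15), which carry factor VIII through the secretory pathway, did not pass.

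Of 10 genes of the glutathione cycle 3 rose and 1 fell (median -0.10). The aminopeptidase Anpep (1.87 ± 0.27), the peroxidase Gpx1 (1.28 ± 0.13) and Lap3 (0.70 ± 0.14) rose, and Gclm, the modifier subunit of the enzyme that begins glutathione synthesis, fell by 0.65. Of 13 other receptor tyrosine phosphatases 1 rose and 3 fell (median -0.19). Ptprc, the leukocyte antigen CD45, rose by 4.09 ± 0.11, and Ptprr (-0.50 ± 0.10), Ptprh (-0.36 ± 0.12) and Ptprd (-0.34 ± 0.10) fell. All adjusted p of these rises and falls in limma were 0.0394 or less.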

How the data were processed

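Total RNA of 8 whole spinal cords, 4 EAE and 4 control, was hybridised to Affymetrix rat exon arrays, 1 rat per array. The deposited values are log2 intensities per probe set, already normalized. The submitters' processing notes name Affymetrix Expression Console, RMA and Partek without role, and no source used here gives a build. RMA adjusts background and makes array distributions alike, and it leaves dim probe sets with compressed differences. Gene symbols came from the platform annotation: 76186 of 80939 probe sets had 1 symbol, 550 several and 4203 none.

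From these values limma 3.58.1 in R 4.3.3 was run on all 62176 measured probe sets and on the means of 6961 genes, and its diffSplice test on 5563 genes, each with Benjamini-Hochberg adjustment over the whole table at 0.05, 2-sided. Scripts were tested on simulated data. The members and lists were chosen with earlier results of these data known. No single p-value is therefore printed for the 6 genes, and their calls in limma describe them and do not test them. Values per array are given for up to 4 probe sets set apart in each direction per gene and for the one nearest the median change, and for further bright probe sets singled out after their values were seen. The background list took symbols beginning with Olr except Olr1, a lipoprotein receptor. The labels give no batch. Alternatives changed the filter, the normalization, the variance model, the yardstick within the gene, its size, and the arrays used. The list of genes related to Arhgap4 is not reported here, though its genes are included in the count of related genes.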

Additional observations from a re-analysis of the deposited data

Results flagged for a closer look

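In 4 of the 84 groups of 4 arrays checked, over 36 probe sets and 6 gene means, 1 array lay far from the other 3 by Dixon's criterion. Chance gives about 1 in 20, which is close to that number. For Hk3 6500828 EAE 219 read 4.76, where the other EAE cords read 3.91 to 3.98. For the Stxbp2 gene mean EAE 219 was at 5.53, where the other EAE cords lay at 5.80 to 5.86. For F8 6450091 control 195 read 3.28, where the other controls read 4.92 to 5.22. For Oplah 5678497 control 195 read 4.48, where the other controls read 4.85 to 4.93.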

How the results depend on the processing

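No called change reversed its direction in the alternatives run. Of the changes that were not called, those of Arhgap4 6036983 (-0.28 to 0.09), Oplah 5641087 (-0.48 to 0.09) and F8 6133518 (-0.11 to 0.41) crossed 0. With the filter at the 50th percentile, which is stricter, 32 probe sets of the 6 genes were higher in EAE, 1 was lower, 8 were set apart upward and 6 downward. The lower calls were 2 without both control 195 and EAE 218, and 1 without variance moderation. A size of 0.5 in place of 1 set 26 probe sets apart upward and 32 downward, and a size of 2 set 3 and 0 apart. By diffSplice's own test per probe set 20 were lower than their gene. With the median of the probe sets 3 of the 6 genes passed at the gene level. Among probe sets above background in both groups, an alternative chosen after seeing the data, 7 were set apart upward and 5 downward. Leaving out each rat in turn gave 42 to 58 higher and 0 to 4 lower calls, 17 to 19 set apart upward and 12 to 17 downward, 6 to 6 genes in the exon usage test, 5 to 5 at the gene level and 16 to 21 related genes. The cause of these shifts was not tested. Shares over all probe sets were not worked out for these alternatives, except for probe sets above background in both groups. With another filter the number of measured probe sets changes as well. The counts therefore show only how the calls shift with the setting, and not whether they exceed those of all genes. The lower call was lost for F8 5814124 in 9 of 15 alternatives (change -1.06 to -0.52), for F8 5917742 in 6 of 14 (-1.62 to -1.13), for Ptpro 6434295 in 7 of 14 (-1.05 to -0.65) and for Hk3 6242226 in 4 of 14 (-0.73 to -0.55), with the same sign throughout. No paired analysis was possible because the rats of the 2 groups share no number. Signal over background limits the values, as 53 of the 129 measured probe sets lay at or below background in both groups.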
